A study of Mus musculus with 14 samples.

Results

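The Hedgehog genes described here are *Shh*, *Ptch1*, *Smo*, *Hhip*, *Sufu*, *Gli1*, *Gli2* and *Gli3*, 8 of the 54332 genes in the time-course table. They were chosen by symbol as members of one pathway, not by their measured values, though with earlier results of these data known. All 8 were found. 5 of them (*Ptch1*, *Smo*, *Sufu*, *Gli2* and *Gli3*) had a mean of at least 1 TPM (transcripts per 1000000, scaled to transcript length) over the 10 libraries and were tested. The other 3 (*Shh*, *Hhip* and *Gli1*) lay below that mean and are given by their values.

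RNA was sequenced from epidermal stem cells (EpdSCs) sorted from the back skin of male CD1 mice that carried *K14rtTA*, a doxycycline (DOX)-dependent activator driven by an epidermal keratin promoter, and *TRE-myc-Sox9*, a MYC-tagged *Sox9* transgene that responds to it. The study compared the cells across the time on DOX to follow what sustained SOX9 does to them. There were 2 biological replicates at each of 5 timepoints: D0 at postnatal day 21, W1 at day 28, W2 at day 35, W6 at day 63, and W12. All mice carried both transgenes, D0 cells included, and no RNA from age-matched mice without *TRE-myc-Sox9* was analysed here, so age and time on DOX cannot be told apart from D0 to W6.

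W12 cells came from newborn skin that was grafted onto female immunocompromised *Nude* mice and left to heal before DOX, whereas the earlier cells came from mice that were not grafted. Grafting and 12 weeks on DOX cannot be told apart. The sort took CD31-, CD45-, CD117- and CD140a-negative, CD49f-high, CD34-negative and Ly6A-high cells. A further 4 libraries, of SOX9+ and SOX9-negative hair placode cells of *Sox9-eGFP* embryos, were represented by the authors' own comparison and were not used here. TPM carry no depth, so the number of reads behind a value is unknown.

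Hedgehog ligands bind the receptor PTCH1, which otherwise holds the transducer SMO inactive. Active SMO frees the GLI transcription factors from their inhibitor SUFU at the primary cilium, and GLI factors then activate target genes that include *Gli1*, *Ptch1* and *Hhip*. In skin the pathway is known for its roles in hair follicle growth, and its constitutive activation drives basal cell carcinoma (BCC).

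Basal epidermal markers summed to between 31948 and 48529 TPM in every library, with *Krt14* alone at 19997 TPM or more, as the label of the cells has it. *Krt14* and *Krt5* made up most of that sum. Both W12 libraries were above both D0 libraries for *Krt14* and *Ly6a*. They were below both for *Krt5*, *Trp63*, *Itga6*, *Itgb4* and *Col17a1*. *Trp63* had 291 and 654 TPM at D0 and 126 and 119 TPM at W12, and *Col17a1* 686 and 1083 TPM and then 224 and 283 TPM. The transgene transcript (MYC-SOX9) had 45.6 and 89.6 TPM before DOX and 606 to 3414 TPM on DOX. D0 replicate 2 went against its male label, since it held *Xist* (4.61 TPM) and nearly no Y-linked *Ddx3y* (0.0278 TPM), so each difference from D0 that passed the test, for the Hedgehog genes and the other pathway genes, was also fitted without that library. Both W12 libraries held *Xist* (5.51 and 3.50 TPM) beside *Ddx3y* (11.0 and 12.9 TPM). Endothelial markers summed to 28.9 and 66.8 TPM at W12 and to at most 1.35 TPM before it, and *Cd34*, whose product the sort selected against, reached 16.5 and 32.0 TPM there. Immune markers summed to between 102 and 125 TPM at W12 and to at most 27.0 TPM before it. *Cd74* alone gave 102 and 124 TPM of the W12 sums, while *Ptprc*, which marks all leukocytes, was at 0.327 TPM or less in every library. Sebaceous gland markers summed to between 17.2 and 33.6 TPM at W6 and between 11.7 and 18.5 TPM at W12, against at most 4.81 TPM from D0 to W2. *Scd3* and *Cidea* gave nearly all of that, and *Mc5r* was at 0.244 TPM or less in every library. Fibroblast markers summed to 14.3 and 29.5 TPM at W12 and to 52.3 TPM in W6 replicate 2. *Dcn* gave 13.2 and 27.2 TPM of the W12 sums and 51.2 TPM of the last. No other listed fibroblast marker exceeded 1.41 TPM in these libraries, and *Pdgfra*, *Col1a1* and *Lum* were each at 0.161 TPM or less in W6 replicate 2. Hair follicle stem cell markers summed to 22.7 and 33.3 TPM at D0 and to between 62.2 and 74.7 TPM at W1 and W2, most of it *Nfatc1*, and to between 30.9 and 51.8 TPM later. Smooth muscle markers summed to at most 3.33 TPM at D0 and to between 6.69 and 12.1 TPM at all later timepoints, and *Acta2* gave most of that, with *Myh11* and *Des* at 0.0741 TPM or less throughout. Hair matrix and shaft markers summed to 8.67 and 13.6 TPM at D0, the highest, to 3.11 and 5.58 TPM at W6 and to 2.64 and 3.69 TPM at W12. *Msx2* gave the largest part at D0 and W12 (5.53 and 11.1 TPM, then 1.29 and 2.51 TPM). *Hoxc13* and *Dlx3* were highest in a W2 library (0.834 and 1.29 TPM), and *Krt85* was not found. Suprabasal markers lay between 1022 and 2267 TPM throughout, melanocyte markers at 12.5 TPM or less and Merkel cell markers at 2.00 TPM or less. Immediate-early and heat-shock genes summed to between 32353 and 53327 TPM at D0 and to at most 13235 TPM later. The heat-shock genes did not share that order, since *Hspa1a* had 183 and 116 TPM at D0 and between 263 and 376 TPM at W1 and W2, and *Hspa1b* 399 and 275 TPM and then between 402 and 919 TPM. The part of these features in the results below was not tested. In bulk RNA, fewer cells that express a gene and less of its RNA per cell cannot be told apart.

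Because TPM are scaled to length, levels can be set side by side between genes. *Smo* had the highest mean over the 10 libraries (62.0 TPM), followed by *Sufu* (11.9 TPM), *Gli3* (3.91 TPM), *Ptch1* (2.65 TPM), *Gli2* (2.06 TPM) and *Gli1* (0.536 TPM). *Hhip* and *Shh* were at the bottom of that order, with means of 0.00984 and 0.00489 TPM. *Smo* was above *Sufu*, and *Sufu* above *Gli3*, in every library. The ranges of *Gli3*, *Ptch1* and *Gli2* overlapped, and *Gli2* and *Ptch1* changed places between libraries.

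For *Gli2*, *Smo* and *Sufu*, whose changes are the clearest in the results that follow, the 250 bases before the annotated RefSeq start site on GRCm38.p6 are shown, read 5′ to 3′ on the strand of the gene. They were read from a RefSeq promoter table that held 6 of the 8 genes (*Ptch1*, *Smo*, *Hhip*, *Sufu*, *Gli2* and *Gli3*). Capitals mark CCACCC on either strand, the core of the site that GLI factors bind.
Gli2, chr1:119053620-119053869, minus strand: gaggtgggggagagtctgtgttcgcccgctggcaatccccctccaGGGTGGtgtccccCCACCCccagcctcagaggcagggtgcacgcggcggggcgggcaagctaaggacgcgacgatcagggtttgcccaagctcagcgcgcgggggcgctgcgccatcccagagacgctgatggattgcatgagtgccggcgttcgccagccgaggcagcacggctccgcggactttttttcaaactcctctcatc
Smo, chr6:29735247-29735496, plus strand: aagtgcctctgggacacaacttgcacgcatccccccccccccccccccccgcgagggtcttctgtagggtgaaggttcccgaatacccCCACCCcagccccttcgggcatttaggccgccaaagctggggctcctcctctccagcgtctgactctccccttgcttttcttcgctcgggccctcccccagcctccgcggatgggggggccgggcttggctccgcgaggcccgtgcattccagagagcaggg
Sufu, chr19:46396646-46396895, plus strand: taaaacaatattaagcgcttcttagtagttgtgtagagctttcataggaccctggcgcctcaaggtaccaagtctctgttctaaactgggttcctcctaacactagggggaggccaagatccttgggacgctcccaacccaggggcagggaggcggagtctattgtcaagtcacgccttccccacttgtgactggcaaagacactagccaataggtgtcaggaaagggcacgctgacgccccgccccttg
The stretch before *Gli2* held CCACCC at positions -205 (minus strand) and -192 (plus strand) from the start site, the one before *Smo* held it at -162, and the one before *Sufu* held none. Of the promoters not printed, those of *Gli3* (-170) and *Hhip* (-158) held CCACCC and that of *Ptch1* did not. CCACCC occurred in 28.1% of all 32851 promoters over the same length, so its presence sets none of these apart. None of the 6 held the longer GLI site GACCACCCA, of which CCACCC is a part and which 0.225% of all promoters held, nor the SOX core motifs ACAAAG (16.5% of promoters) and ACAATG (10.7%). Both strands were searched for each. GC content was 67.2% before *Gli2*, 68.4% before *Smo* and 54.0% before *Sufu*, with a median of 52.4% over all promoters.

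*Shh* (ENSMUSG00000002633.4, chr5:28456815-28467256, minus strand) encodes the ligand. It was listed at 0 in 8 of the 10 libraries. The remaining libraries were D0 replicate 2 (0.0341 TPM) and W12 replicate 1 (0.0148 TPM). *Shh* RNA was therefore at or close to 0 at all timepoints, the W12 cells included. 15.67% of its exonic bases also lie in exons of the antisense gene *9530036O11Rik*, and 12.68% in those of *Gm26894* on the other strand.

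*Ptch1* (ENSMUSG00000021466.12, chr13:63508328-63573598, minus strand) encodes the receptor and is itself a GLI target. It stood at 1.73 and 2.77 TPM at D0, 3.06 and 4.35 TPM at W1 and 4.10 and 3.62 TPM at W2. It then stood at 2.15 and 2.63 TPM at W6 and 0.844 and 1.28 TPM at W12. Both W1 and both W2 libraries were above both D0 libraries, the W6 libraries lay within the D0 range, and both W12 libraries were below it. On the log2(TPM + 1) scale its difference from D0 was 0.54 (SE 0.25, adjusted *P* = 0.223) at W1 and 0.60 (95% interval 0.02 to 1.18, adjusted *P* = 0.146) at W2, and neither passed the test. At W12 it was -0.65 (adjusted *P* = 0.0683), which also did not pass. That value passed in 5 of 19 alternative settings, one of them the fit without D0 replicate 1 (-0.88, adjusted *P* = 0.0366). Without D0 replicate 2 it was -0.41 (adjusted *P* = 0.314), and with the longest-transcript correction described below -0.21 (adjusted *P* = 0.458).

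*Smo* (ENSMUSG00000001761.7, chr6:29735503-29761365, plus strand) encodes the transducer and carried the most RNA of the 8 genes. D0 libraries had 73.3 and 85.3 TPM, W1 libraries 77.2 and 78.1 TPM, and W2 libraries 74.2 and 84.8 TPM. W6 libraries had 56.4 and 37.2 TPM, and W12 libraries 25.9 and 27.7 TPM. The first 3 timepoints overlapped one another, all W6 libraries lay below them, and all W12 libraries lay below W6. The difference from D0 was -0.03 at W1 (95% interval -0.48 to 0.42) and 0.00 at W2 (95% interval -0.45 to 0.45).

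*Smo* fell by 0.77 on the log2 scale at W6 against D0 (SE 0.20, adjusted *P* = 0.0180) and by 1.53 at W12 (SE 0.20, adjusted *P* = 0.000578). With either the median- or the longest-transcript correction described below, the W12 fall was 0.85. The W12 fall passed the test in all 20 alternatives run for it, with adjusted *P* values of at most 0.00787 (0.00507 without D0 replicate 2). The W6 fall was 0.67 without D0 replicate 2 (adjusted *P* = 0.0931) and 0.48 without W6 replicate 2, the library with the high *Dcn* (adjusted *P* = 0.0672), and passed in neither fit. It was also lost with all genes above 0 (adjusted *P* = 0.0608) and with only the 4 libraries compared (adjusted *P* = 0.136). From W2 to W6 *Smo* fell by 0.78 (adjusted *P* = 0.0339) and from W6 to W12 by 0.75 (adjusted *P* = 0.0302), but these calls held in only 9 of 20 and 7 of 21 alternatives. With the replicate number as a block the adjusted *P* values were 0.0558 and 0.0503. The fall from W6 to W12 was 0.46 without W6 replicate 1 (adjusted *P* = 0.107), and 0.32 and 0.26 after correction for GC content and the median or longest transcript length (adjusted *P* = 0.189 and 0.254). The fall from W2 to W6 was 0.48 without W6 replicate 2 (adjusted *P* = 0.110) and 0.43 after the correction by median length (adjusted *P* = 0.0843).

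*Sufu* (ENSMUSG00000025231.17, chr19:46396896-46488804, plus strand) encodes the inhibitor that holds GLI proteins in the cytoplasm. Its values were 11.8 and 15.4 TPM at D0, 12.7 and 15.7 TPM at W1, with 11.8 and 10.4 TPM at W2. They were 15.1 and 14.6 TPM at W6 and 4.83 and 6.63 TPM at W12. From D0 to W6 the libraries lay between 10.4 and 15.7 TPM without order, and both W12 libraries were below all of them. *Sufu* fell by 1.12 at W12 against D0 (SE 0.21, adjusted *P* = 0.00341) and by 1.25 against W6 (SE 0.21, adjusted *P* = 0.00560), the latter lost without W12 replicate 1 (adjusted *P* = 0.0549). Without D0 replicate 2 the fall at W12 against D0 was 0.94 (adjusted *P* = 0.0237), and with the longest-transcript correction it was 0.42 and did not pass (adjusted *P* = 0.0571). At W1, W2 and W6 its differences from D0 were 0.07, -0.26 and 0.13, and none passed.

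*Gli2* (ENSMUSG00000048402.14, chr1:118834132-119053619, minus strand), which encodes the main activator among the GLI factors, changed most early. It was at 0.532 and 0.702 TPM at D0, 3.29 and 3.84 TPM at W1, with 3.62 and 4.27 TPM at W2. It was at 1.87 and 1.14 TPM at W6 and 0.589 and 0.717 TPM at W12. All W1, W2 and W6 libraries were above both D0 libraries, and the W12 libraries overlapped D0. *Gli2* rose by 1.50 at W1 (SE 0.23, adjusted *P* = 0.00501) and by 1.61 at W2 (SE 0.23, adjusted *P* = 0.00260).

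The W2 rise of *Gli2* passed in all 19 alternatives that tested it. The W1 rise passed in 19 of 20 and was lost without W1 replicate 2, where it was still 1.41. Without D0 replicate 2, both rises passed, with adjusted *P* values of 0.0177 at W1 and 0.0116 at W2. From W2 to W6 *Gli2* fell by 0.99 (SE 0.23, adjusted *P* = 0.0261), which was lost without W6 replicate 2 (adjusted *P* = 0.0742) and without either W2 library (adjusted *P* = 0.124 without replicate 1 and 0.158 without replicate 2). With the longest-transcript correction that fall was 0.51 and did not pass (adjusted *P* = 0.106). At W6 *Gli2* was 0.62 above D0 (adjusted *P* = 0.0688). That difference passed in 4 of 20 alternatives, which were pseudocount 0.1 (1.14, adjusted *P* = 0.0433), no trend (adjusted *P* = 0.0382), the fit without W6 replicate 2 (0.83, adjusted *P* = 0.0326) and the longest-transcript correction (0.95, adjusted *P* = 0.00803). At W12 *Gli2* was 0.03 above D0 (95% interval -0.49 to 0.55). With the longest-transcript correction it was 0.97 above D0 (adjusted *P* = 0.00600), and with the median-transcript correction 0.21 above (adjusted *P* = 0.428).

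*Gli3* (ENSMUSG00000021318.15, chr13:15463235-15730026, plus strand) encodes the GLI factor best known as a repressor when processed. It had 3.37 and 3.60 TPM at D0, 4.35 and 3.55 TPM at W1, with 6.75 and 6.36 TPM at W2. It had 3.57 and 3.34 TPM at W6 and 1.88 and 2.35 TPM at W12. D0, W1 and W6 overlapped, both W2 libraries were above all others, and both W12 libraries were below all others. *Gli3* rose by 0.75 at W2 (SE 0.19, adjusted *P* = 0.0322), but this passed in only 9 of 19 alternatives. The call was lost without either D0, W1 or W2 library, where the rise stayed between 0.71 and 0.79. With the replicate block the adjusted *P* value was 0.0533.

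From W2 to W6 *Gli3* fell by 0.76 (adjusted *P* = 0.0337; 0.0550 with the replicate block), a call kept in 7 of 19 alternatives. W12 was 0.53 below D0 (adjusted *P* = 0.0529), which passed in 5 of 19 alternatives. With the median- and longest-transcript corrections it was -0.16 (adjusted *P* = 0.503) and -0.06 (adjusted *P* = 0.797). 1.96% of the exonic bases of *Gli3* also lie in an exon of *Gm6556* on the other strand, whose reads cannot be told apart where strand is not used. *Gli2*, *Ptch1*, *Smo* and *Sufu* share no exonic base with another gene.

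*Gli1* (ENSMUSG00000025407.7, chr10:127329882-127341974, minus strand), a GLI target whose RNA is the usual readout of pathway activity, stayed low. Its values were 0.496 and 0.153 TPM at D0, 0.298 and 0.637 TPM at W1, and 0.410 and 0.570 TPM at W2. They were 0.552 and 1.36 TPM at W6 and 0.503 and 0.376 TPM at W12. All timepoints but W6 overlapped D0, and the highest value belonged to W6 replicate 2, the library with the high *Dcn*. When all genes with a TPM above 0 were fitted, the difference of *Gli1* from D0 was 0.15 at W1, 0.18 at W2, 0.54 at W6 (95% interval -0.12 to 1.21) and 0.13 at W12 (95% interval -0.53 to 0.79), and none passed. These intervals leave room for changes as large as their bounds. 5.31% of the exonic bases of *Gli1* also lie in exons of the antisense gene *Gm47200* and 1.24% in those of *Arhgap9*, on the other strand.

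*Hhip* (ENSMUSG00000064325.4, chr8:79965851-80058006, minus strand), a GLI target whose product sequesters ligand, was listed at 0 in 6 libraries. 1.93% of its exonic bases also lie in *Gm27820* on the other strand. It had 0.0403 TPM in D0 replicate 2, 0.0265 TPM in W1 replicate 1, and 0.0139 and 0.0176 TPM at W2. All W6 and W12 libraries were listed at 0. Neither *Gli1* nor *Hhip* was at 1 TPM or more in any W12 library.

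**Figure D1:**
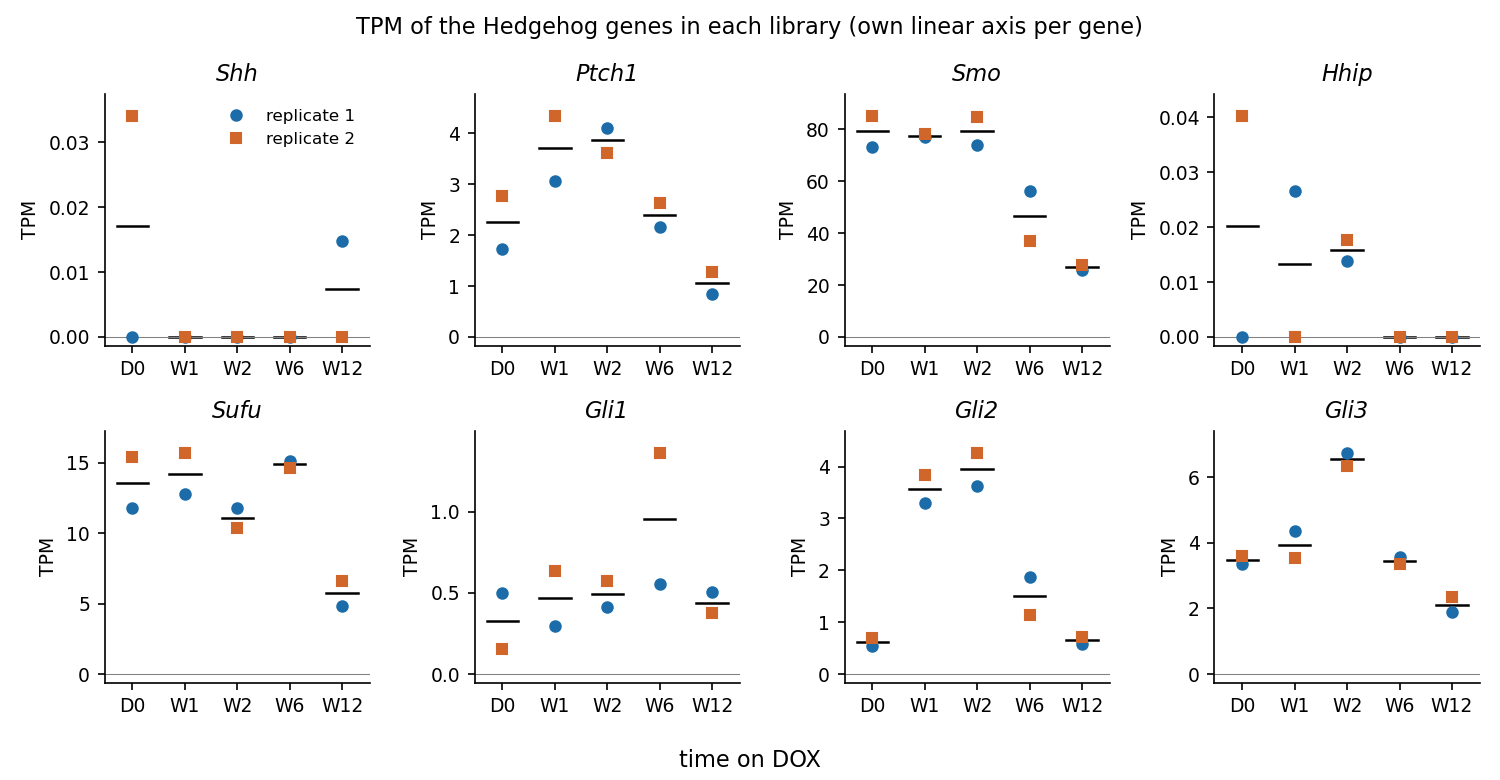
TPM of each Hedgehog gene (vertical axes, linear, a separate range for each gene) by timepoint on DOX (horizontal axis); circles and squares are replicates 1 and 2, and bars are their means. *Gli2* is high only at W1 and W2, with W6 between these and D0, *Gli3* is highest at W2, *Smo* steps down at W6 and W12, *Sufu* is low at W12 only, and *Shh*, *Hhip* and *Gli1* stay low.

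Set against all genes, the shares of calls give the background. At W1 1 of 5 members was higher (*Gli2*), where 5.79% of the 13110 genes tested were higher and 4.1% lower. At W2 2 of 5 were higher (*Gli2* and *Gli3*), where 9.06% of all genes were higher and 6.64% lower. At W6 1 of 5 was lower (*Smo*), where 14.1% of all genes were lower and 18.3% higher. At W12 2 of 5 were lower (*Smo* and *Sufu*), where 25.1% of all genes were lower and 17.9% higher. With 5 members, 1 or 2 calls at W6 or W12 lie near that background.

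The median difference of the 5 members from D0 was 0.14, 0.60, 0.08 and -0.65 in the order W1, W2, W6, W12, against 0.09, 0.06, 0.08 and -0.08 over all genes tested. Between W1 and W2 no member passed (1 at an unadjusted *P* under 0.05, *Gli3*), where limma called 0.114% of all genes (15 genes, 1900 at an unadjusted *P* under 0.05). Between W2 and W6 3 of 5 fell (*Gli2*, *Gli3* and *Smo*), where 8.31% of all genes fell. Between W6 and W12 2 of 5 fell (*Smo* and *Sufu*), where 13.5% of all genes fell. In the F test over the 4 differences from D0, all 5 varied with time, with adjusted *P* from 0.00111 (*Smo*) to 0.0153 (*Ptch1*), and so did 57.5% of all genes.

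Because several members were high at W2 and low at W12, W12 was also set against W2, a comparison added after the values had been seen. All 5 were lower at W12, where 27.2% of all genes were lower. *Gli2* was 1.58 lower (adjusted *P* = 0.00102), *Smo* 1.53 lower (0.000593), *Gli3* 1.28 lower (0.00120), *Ptch1* 1.25 lower (0.00485) and *Sufu* 0.85 lower (0.0112). The median was -1.28, against -0.12 over all genes. After correction for GC content and the longest transcript length 3 of the 5 passed with smaller differences (*Smo* 0.77 lower, *Gli3* 0.70 lower, *Ptch1* 0.65 lower; adjusted *P* = 0.00460, 0.0178 and 0.0401), while *Gli2* was 0.48 lower (adjusted *P* = 0.0861) and *Sufu* 0.06 lower (adjusted *P* = 0.774). As the comparison was picked from these values, it describes them and supports nothing further. The share of all calls that were higher moved with the scaling, from 58.6% to 47.4% at W1 against D0, from 33.0% to 55.0% between W6 and W12, and from 36.6% to 49.9% between W2 and W12 with median-ratio scaling.

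**Figure D2:**
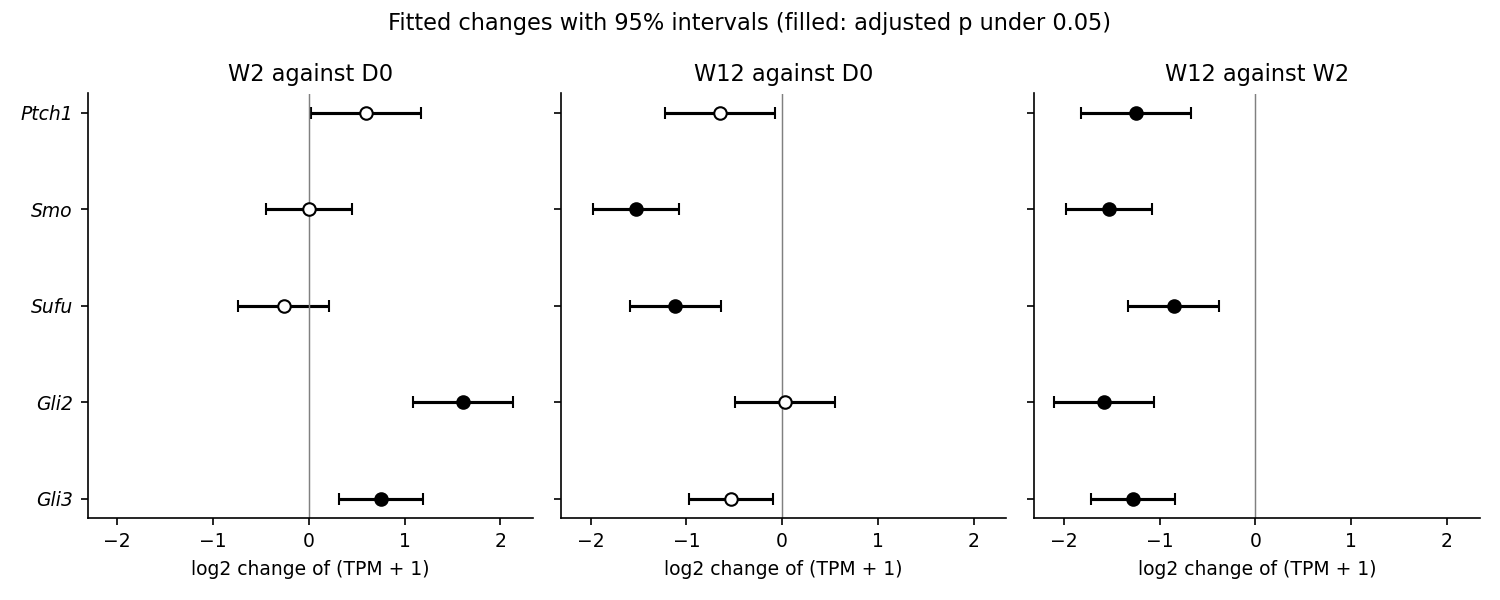
Fitted differences of log2(TPM + 1) (horizontal axis) for the 5 tested Hedgehog genes, W2 against D0, W12 against D0 and W12 against W2; points are estimates from 2 libraries a timepoint, bars are 95% intervals, and filled points have an adjusted *P* under 0.05. The filled points are *Gli2* and *Gli3* right of 0 at W2, *Smo* and *Sufu* left of 0 at W12, and all 5 left of 0 for W12 against W2.

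Transcript length moved with time in the same libraries. Over 13099 genes, the difference from D0 had a Spearman correlation with the length of the longest transcript of 0.00 (W1), -0.08 (W2), -0.24 (W6) and -0.32 (W12), so longer genes tended to lie lower late. After each library was corrected for this length and for GC content, *Smo* at W12 was 0.85 below D0 and still passed (adjusted *P* = 0.00266), whereas *Sufu* did not. With the same correction *Gli2* at W12 was 0.97 above D0 (adjusted *P* = 0.00600), and its W1 and W2 rises were 1.25 and 1.46 and passed. When the median length over a gene's transcripts was used instead, *Sufu* still passed at W12 and *Gli2* did not. For *Gli2* the longest transcript has 6637 bases and the median one 911, so the W12 level of *Gli2* relative to D0 depends on which length is taken.

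The TPM of the GLI genes relative to one another also differed between timepoints. The ratio of *Gli2* to *Gli3* TPM was 0.158 and 0.195 at D0, 0.757 and 1.08 at W1, and 0.536 and 0.671 at W2. It was 0.525 and 0.342 at W6 and 0.314 and 0.305 at W12. All libraries on DOX were above both D0 libraries, and W1 was highest. The ratio at W12 was above D0 while the *Gli2* level overlapped D0, since *Gli3* TPM were lower there. That *Gli3* difference did not pass in limma (adjusted *P* = 0.0529). *Gli1*, *Gli2* and *Gli3* together came to 4.40 and 4.46 TPM at D0, 7.94 and 8.03 TPM at W1, and 10.8 and 11.2 TPM at W2. The sum was 5.99 and 5.85 TPM at W6 and 2.97 and 3.45 TPM at W12. These ratios and sums were not tested and are given as a description.

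**Figure D3:**
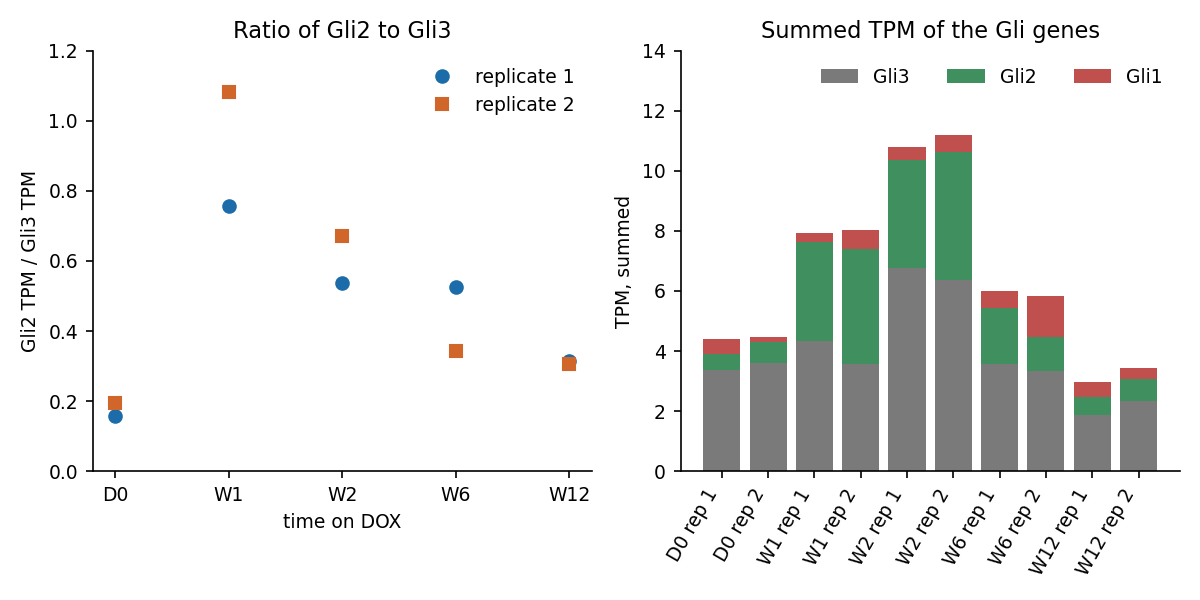
Left, ratio of *Gli2* to *Gli3* TPM (linear axis) at each timepoint on DOX, with circles for replicate 1 and squares for replicate 2; right, TPM of *Gli3*, *Gli2* and *Gli1* stacked for each library. The ratio is below 0.2 at D0 and between 0.305 and 1.08 later, and the summed TPM peaks at W2.

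The time courses of the 5 tested members were compared over the 10 libraries on log2(TPM + 1). Pearson's r was highest for *Ptch1* with *Gli3* (0.83) and with *Gli2* (0.83), followed by *Ptch1* with *Smo* (0.79), *Gli2* with *Gli3* (0.77) and *Smo* with *Gli3* (0.76). It was lowest for *Sufu* with *Gli2* (0.38). Points of one timepoint share age and time on DOX, so these describe the course and carry no *P* value. The genes whose course was most like that of *Gli2* were *Lifr*, a cytokine receptor subunit (r = 0.988), *Gprin3* (0.984) and *Fam234a* (0.981). For *Gli3* they were *Cyfip1* (0.959), *Btbd6* (0.957) and *Sesn1* (0.954). For *Smo* they were *Kremen1*, which encodes a DKK receptor of the WNT pathway (0.991), *Ap1b1* (0.990) and *Tbc1d2b* (0.990), and for *Sufu* *Sf3a1*, a splicing factor subunit (0.979), *Srp68* (0.968) and *Cluh* (0.962).

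A list of 45 other pathway genes was written by role, and 34 of them were tested. At W1 2 were higher and none lower, at W2 4 were higher and 1 lower, at W6 none was higher and 4 lower, and at W12 1 was higher and 14 lower. Over all genes tested the shares were 5.79% higher and 4.1% lower at W1, 9.06% and 6.64% at W2, 18.3% and 14.1% at W6, and 17.9% and 25.1% at W12. The median difference from D0 over these 34 was 0.28 (W1), 0.24 (W2), 0.01 (W6) and -0.55 (W12), where all genes had 0.09, 0.06, 0.08 and -0.08. Without D0 replicate 2, 1 of the 2 calls at W1, 4 of 5 at W2, 3 of 4 at W6 and 11 of 15 at W12 were kept.

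The other ligands had at most 1.78 TPM. *Ihh* lay between 0.064 and 0.475 TPM in all libraries. *Dhh* lay at 0.0299 TPM or less from D0 to W2, then at 0.468 and 0.786 TPM at W6 and 0.665 and 1.78 TPM at W12, so that all late libraries were above all early ones. It was not tested. Of the sebaceous gland markers, *Scd3* and *Cidea* were also higher in the W6 and W12 libraries, while *Mc5r* stayed at 0.244 TPM or less. Endothelial markers were higher in the libraries of W12.

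Of the genes for ligand release, *Scube2*, which helps release lipidated ligand, had 7.87 and 8.35 TPM at D0 and 26.9 and 15.6 TPM at W2. It rose by 1.24 at W2 (adjusted *P* = 0.0147) and fell by 0.89 at W6 (adjusted *P* = 0.0307) and 0.87 at W12 (adjusted *P* = 0.0258). Without D0 replicate 2 the falls were about as large (0.85 and 0.83) and did not pass (adjusted *P* = 0.120 and 0.0992), nor did they without D0 replicate 1 (adjusted *P* = 0.0597 and 0.0555). *Disp1*, which encodes the ligand transporter, fell by 0.87 at W12 (adjusted *P* = 0.0117), with 3.48 and 2.70 TPM at D0 and 1.17 and 1.27 TPM at W12. *Hhat*, which encodes the acyltransferase that modifies the ligand, was 0.64 below D0 at W12 and did not pass (adjusted *P* = 0.103). *Disp2*, *Scube1* and *Scube3* were at 0.147 TPM or less throughout.

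The 3 tested co-receptors, which help ligand bind PTCH1, all fell at W12, where 25.1% of all genes were lower. *Cdon* had 6.15 and 6.02 TPM at D0, 2.51 and 2.64 TPM at W2, then 0.540 and 1.18 TPM at W6 and 0.648 and 0.580 TPM at W12. It fell by 0.99 at W2 (adjusted *P* = 0.0232), 1.95 at W6 (adjusted *P* = 0.000644) and 2.13 at W12 (adjusted *P* = 0.000237). The W2 fall was 1.00 without D0 replicate 2 (adjusted *P* = 0.0722) and 0.97 without D0 replicate 1 (adjusted *P* = 0.0562), and passed in neither fit. *Boc* fell by 1.65 at W12 (adjusted *P* = 0.00260), from 16.2 and 28.6 TPM at D0 to 4.96 and 7.69 TPM. *Gas1* had 221 and 111 TPM at D0, 442 and 368 TPM at W2, then 64.4 and 60.3 TPM at W12, with a fall of 1.32 at W12 (adjusted *P* = 0.0444) and a difference of 1.36 at W2 that did not pass (adjusted *P* = 0.0793). Its W12 fall was 0.83 and did not pass without D0 replicate 1 (adjusted *P* = 0.217), and was 1.81 without D0 replicate 2 (adjusted *P* = 0.0344).

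*Lrp2*, which encodes another receptor that can bind ligand, was at 0.0350 TPM or less and was not tested. Among 16 intracellular regulators, none passed at W1 or W2, 1 fell at W6 (*Btrc*) and 6 fell at W12. Over all genes tested, 14.1% were lower at W6 and 25.1% at W12. The largest falls at W12 were those of *Evc2*, a ciliary SMO partner (-1.35), *Gsk3b*, a kinase that acts in GLI processing (-1.09), and *Btrc*, a ubiquitin ligase subunit (-1.08). Of 7 cilium genes, *Ift172*, an intraflagellar transport gene, rose at W2 (0.81, adjusted *P* = 0.0151) and at W12 (0.49, adjusted *P* = 0.0478; 0.31 and 0.178 without D0 replicate 1), and *Arl13b*, a ciliary GTPase gene, fell at W6 (-0.68, adjusted *P* = 0.0145) and at W12 (-1.04, adjusted *P* = 0.00150).

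Of 8 listed targets 5 were tested. *Ccnd2*, a D-type cyclin gene, had 446 and 598 TPM at D0, 1359 and 1512 TPM at W1, 1397 and 1394 TPM at W2, then 168 and 167 TPM at W12. It rose by 1.47 at W1 (adjusted *P* = 0.00388) and 1.43 at W2 (adjusted *P* = 0.00326) and fell by 1.62 at W12 (adjusted *P* = 0.000631). *Bcl2*, an anti-apoptotic gene, had 2.90 and 2.74 TPM at D0, 7.04 and 8.08 TPM at W1, 9.27 and 8.48 TPM at W2, then 1.16 and 1.33 TPM at W12. It rose by 1.16 at W1 (adjusted *P* = 0.0252) and 1.37 at W2 (adjusted *P* = 0.00971) and fell by 0.77 at W12 (adjusted *P* = 0.0412). The W1 rise and the W12 fall were about as large without either D0 library and did not pass (adjusted *P* from 0.0541 to 0.110). The other 3 tested targets, *Ccnd1*, *Mycn* and *Sfrp1*, passed at no timepoint against D0, and the *Ccnd1* difference at W2 was -0.95 (adjusted *P* = 0.118). Both genes also answer to other pathways. *Foxe1*, *Foxf1* and *Snai1* were below a mean of 1 TPM and were not tested. Against W2, the comparison added after the values had been seen, 20 of the 34 other genes were lower at W12 and none was higher, where 27.2% of all genes were lower.

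**Figure D4:**
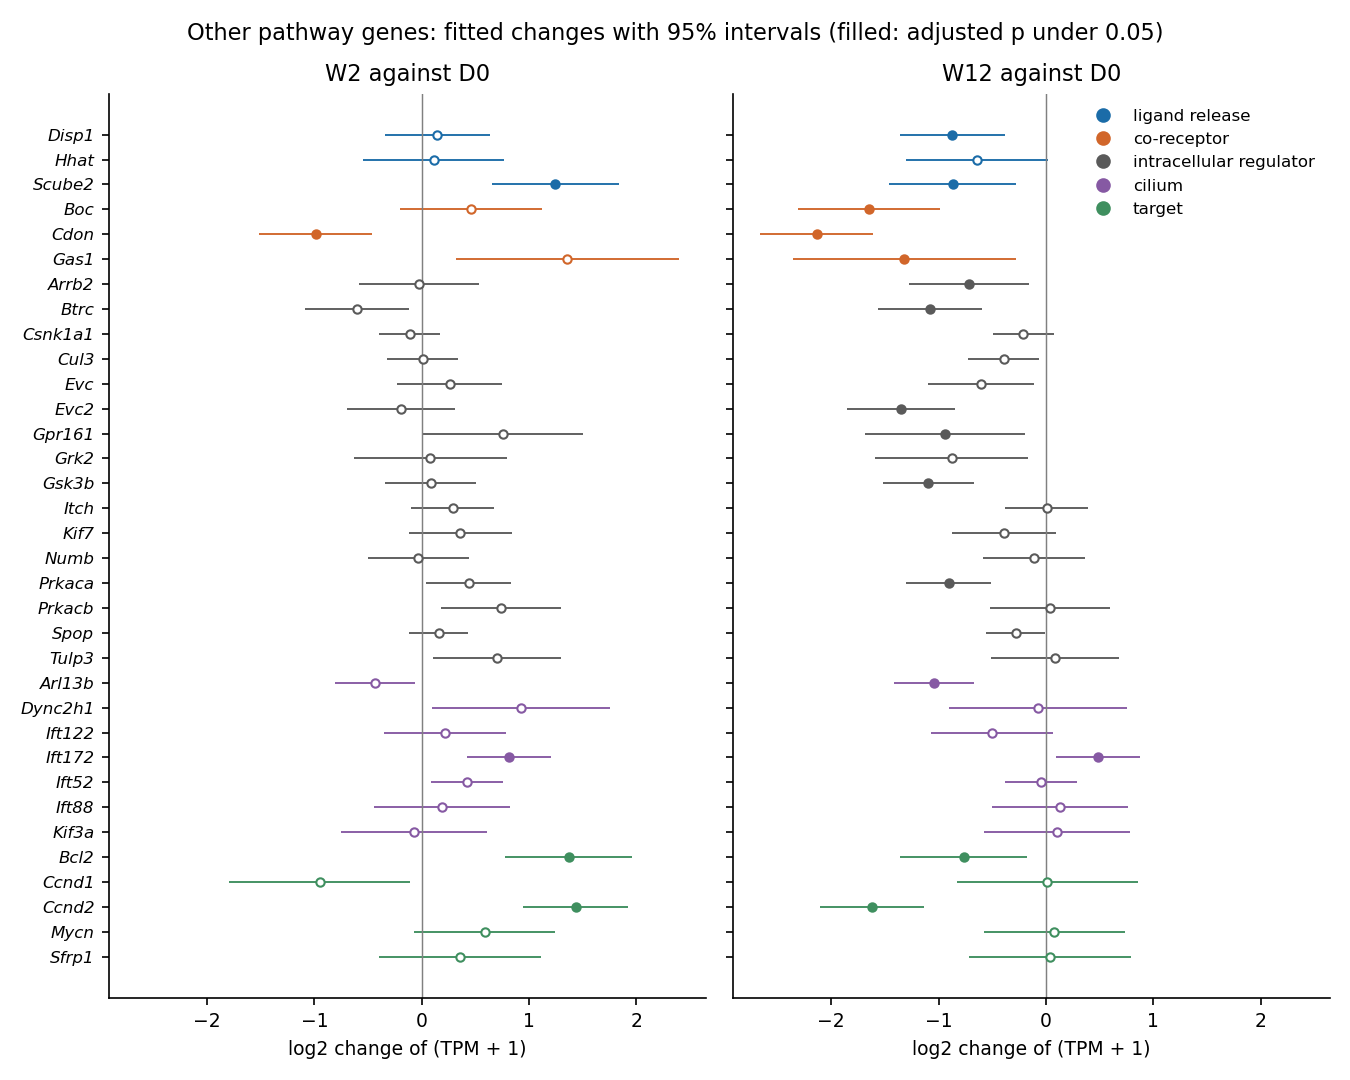
Fitted differences of log2(TPM + 1) from D0 (horizontal axes) at W2 (left) and W12 (right) for the 34 tested other pathway genes, coloured by role; points are estimates from 2 libraries a timepoint, bars are 95% intervals, and filled points have an adjusted *P* under 0.05. At W2 4 filled points lie right of 0 and 1 left; at W12 1 lies right and 14 left, among them all 3 co-receptors.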

How the data were processed

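The authors trimmed reads with Skewer, quantified transcripts with Salmon 1.4.0 against a GENCODE index of GRCm38 that included the transgene, and summed them to genes with Tximport 1.12.3. They deposited these values as TPM per gene, each library summing to 1000000, so depth and counting precision are unknown. Libraries were made with a low-input kit. For the placode cells the authors deposited only a DESeq2 comparison (fold changes and *P* values), which was not used here.

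Sample labels gave the groups, and each of the 10 columns matched 1 sample's title. The authors used DESeq2 on counts for the time course, which TPM do not permit. Instead limma 3.58.1 in R 4.3.3 was run on log2(TPM + 1) of the 13110 genes whose mean reached 1 TPM. One fit of all 10 libraries, with a mean per timepoint and no block, gave every comparison, with eBayes and a mean-variance trend. Adjusted *P* values are Benjamini-Hochberg values over the 13110 genes, and rose or fell means a value under 0.05. The pseudocount of 1 makes changes of low genes look smaller than they are. The step was tested on simulated data. *P* values measure the spread between 2 biological replicates a timepoint.

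The Hedgehog genes, the other pathway genes and the marker lists were chosen with earlier results of these data known. Named were the 8 members; all listed ligand-release and receptor genes, except 1 that is not reported here; up to 3 regulator, cilium and target genes each with the largest change among those that passed at W2 and at W12; and the 3 genes most correlated with each member that passed against D0. Nothing in the labels ties same-numbered replicates of different timepoints to one another.

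The choices varied were the pseudocount (0.1), the filter (all genes above 0, or a mean of 5 TPM or more), the scaling (median-ratio or quantile), the trend (none), the libraries fitted (the 4 of a comparison, or each left out), a replicate block, and a minimum absolute log2 change of 1. Corrections for transcript length and GC content, crossed replicate numbers and the comparison of W12 with W2 were added after the values had been seen; the correction by longest transcript was added after that by median transcript. Gene positions and exons are those of GENCODE M21. Tables and figures were made with Python 3.11.15, pandas 2.3.3, numpy 2.4.6 and matplotlib 3.10.9.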

Additional observations from a re-analysis of the deposited data

How the results depend on the processing

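Of the called differences of members, *Smo* at W12 against D0 and *Gli2* at W2 against D0 passed in all alternatives that tested them. So did *Smo*, *Gli3* and *Ptch1* at W12 against W2, but that comparison was picked from these values and supports nothing further. The depth behind the TPM is unknown, and with 2 libraries a timepoint a lone sample left by an omission was assumed to vary like the other groups.

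Member counts changed as follows. At W1 against D0 (1 in the report) the mean of at least 5 TPM gave 0, since *Gli2* was not tested, and omissions of a library gave 0 to 1. At W2 against D0 (2) that filter gave 0, and an absolute log2 change of at least 1, all genes above 0, quantile normalization, the 4 libraries compared and the replicate block gave 1, with 1 to 2 by omission. At W6 against D0 (1) the change of at least 1, all genes above 0 and the 4 libraries gave 0, pseudocount 0.1, no trend and the longest-transcript correction gave 2, and omissions gave 0 to 1. At W12 against D0 (2) pseudocount 0.1, quantile normalization and no trend gave 4.

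From W2 to W6 (3) the change of at least 1, all genes above 0 and the 4 libraries gave 0, the filter of 5 TPM, the replicate block and the median-transcript correction gave 1, and omissions gave 0 (without W2 replicate 1, W2 replicate 2 or W6 replicate 2) to 3. The longest-transcript correction gave 2, with *Gli2* (-0.51) and *Gli3* (-0.49, adjusted *P* = 0.0952) lost and *Sufu* higher (0.71, adjusted *P* = 0.0195). From W6 to W12 (2) the change of at least 1, all genes above 0, both scalings, the 4 libraries, the replicate block and both length corrections gave 1, and omissions gave 0 (without W12 replicate 1) to 3. At W12 against W2 (5) the filter of 5 TPM gave 2 and the longest-transcript correction 3, with *Gli2* (-0.48, adjusted *P* = 0.0861) and *Sufu* (-0.06, adjusted *P* = 0.774) lost. *Sufu* was also lost there without W2 replicate 1 or W12 replicate 1. Members variable over time (5) were 2 with the filter of 5 TPM and 3 to 5 by omission.

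Same-numbered libraries of 2 timepoints deviated with correlations from -0.13 to 0.18, so the numbers were not taken to pair them. The replicate block left *Smo* at W12 against D0 at -1.53 and ended the call of *Gli3* at W2. It gave 6 calls over all genes between W1 and W2 and 1396 between W2 and W6. Crossing the D0 or W6 numbers where that correlation was under -0.1 changed no member count by over 1.5 times.

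Over all genes, W1 against D0 (1296) had 606 calls with all genes above 0 and 411 with the 4 libraries, and 377 to 1773 by omission. W2 against D0 (2058) had 1288 with a change of at least 1, 1011 with all genes and 1086 with 4 libraries, and 652 to 2647 by omission. W6 against D0 (4251) had 2350 with a change of at least 1 and 1094 with 4 libraries, and 2356 to 5047 by omission. W12 against D0 (5642) had 3156 with a change of at least 1, and 3362 to 6291 by omission. W2 against W1 (15) had 7 with pseudocount 0.1, 80 with 4 libraries, 40 and 39 with the median and longest length corrections, and 0 to 83 by omission. W6 against W2 (2137) had 1129 with a change of at least 1, 940 with all genes and 966 with 4 libraries, and 207 to 3179 by omission. W12 against W6 (2642) had 1390 with a change of at least 1 and 887 with 4 libraries, and 761 to 3223 by omission. Median-ratio scaling moved the median over all genes from -0.16 to -0.01 between W6 and W12 and from -0.12 to 0.02 between W2 and W12, and quantile normalization moved the share of higher calls there from 33.0% to 45.8%.

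Of the other pathway genes, calls at W1 (2) were 1 with all genes above 0, 1 with the filter of 5 TPM, 0 with 4 libraries, 4 with either length correction and 1 to 4 by omission. At W2 (5) a change of at least 1, all genes, the filter of 5 TPM and 4 libraries gave 3, and omissions 1 to 8. At W6 (4) a change of at least 1 and 4 libraries gave 2 and the longest-transcript correction 7. At W12 (15) a change of at least 1 gave 8, and omissions 8 to 19. At W12 against W2 (20) a change of at least 1 gave 11, the filter of 5 TPM 13, and omissions 11 to 23.

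Differences that did not pass in the report and turned sign were these. With quantile normalization, *Gli2* at W12 was -0.478, *Ptch1* at W6 -0.114 and *Smo* at W2 -0.0425 from D0. With median-ratio scaling, *Smo* at W2 was -0.0555 and *Sufu* at W1 -0.0307. With the median-transcript correction, *Gli3* at W6 was 0.103, *Ptch1* at W6 -0.0144, *Smo* at W2 -0.104 and *Sufu* at W1 -0.0678. With the longest-transcript correction, *Gli3* at W1 was -0.0583 and at W6 0.146, *Smo* at W2 -0.0865, *Sufu* at W1 -0.0925, and *Gli2* from W6 to W12 0.0272. By omission of a library, *Gli2* at W12 ranged from -0.0435 to 0.108, *Gli3* at W6 from -0.0478 to 0.0266, *Ptch1* at W6 from -0.156 to 0.311, *Smo* at W1 from -0.135 to 0.0817 and at W2 from -0.104 to 0.112, *Sufu* at W1 from -0.113 to 0.245 and at W6 from -0.0465 to 0.311. Between W1 and W2, *Ptch1* ranged from -0.139 to 0.259 and *Smo* from -0.0647 to 0.125. Except for the omissions of libraries and the filter of 5 TPM, whose construction leaves fewer samples or genes, the cause of these changes was not tested.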
